A study of Mus musculus with 4 samples.

Results

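Matrix metalloproteinases (MMPs) and the tissue inhibitors of metalloproteinases (TIMPs) were followed in mouse bone marrow-derived macrophages (BMDMs) through 7 proteinase genes, Mmp2, Mmp8, Mmp9, Mmp12, Mmp13, Mmp14 and Mmp19, and 3 inhibitor genes, Timp1, Timp2 and Timp3. The members were chosen by name, as the 12 non-control array probes annotated to these 10 genes of the 23688 gene symbols on the array; 8 genes had 1 probe, and Mmp12 and Timp2 had 2 probes each. The 4 conditions compared had 1 array each, with no replicate. Bone marrow of 10-week-old C57BL/6J mice was cultured for 6 days with L929 cell supernatant, a source of macrophage colony-stimulating factor, and stimulated for 2 days. M1 BMDMs were wild-type cells given 20 ng/ml IFN-γ and 100 ng/ml lipopolysaccharide (LPS), and M2 BMDMs were wild-type cells given 50 ng/ml IL-4. Lamtor1-deficient M2 BMDMs received the same IL-4 and came from mice labelled as lacking p18 (2400001E08Rik, now named Lamtor1), which the study's methods describe as a floxed allele deleted by Cre under the myeloid LysM promoter. Torin1-treated M2 BMDMs were wild-type cells that received IL-4 together with 250 nM Torin1, an inhibitor of mTOR kinase, and no array of vehicle-treated cells was analysed here.

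MMPs are zinc-dependent endopeptidases that are made as inactive proenzymes and cleave collagens, elastin and other proteins of the extracellular matrix once the propeptide is removed. TIMPs are secreted proteins that bind the active site of MMPs and block it. Macrophages are a major source of both in inflamed and healing tissue, with Mmp12, the macrophage elastase, being the best known macrophage product. Lamtor1 anchors the Ragulator complex on lysosomes, where mTORC1 is activated by amino acids, and the study asked how the loss of Lamtor1 and the inhibition of mTOR altered the IL-4 response.

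The members did not move as a block. Mmp9 was lower and Mmp19 was higher by more than 2-fold in both Lamtor1-deficient and Torin1-treated M2 BMDMs than in M2 BMDMs. The collagenase genes Mmp8 and Mmp13 were lower in Lamtor1-deficient but higher in Torin1-treated M2 BMDMs. Past 2-fold with Torin1 alone, Mmp12 was higher and Timp2 and Timp3 were lower, Mmp12 and Timp2 by the brightest of their 2 probes only. Mmp2, Mmp14 and Timp1 stayed within 2-fold of M2 BMDMs in both. These comparisons share the M2 array. M1 BMDMs differed from M2 BMDMs mainly by very low Mmp9 and Mmp12, lower Mmp2, Timp2 and Timp3, and higher Timp1.

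Mmp13, Mmp12 and Mmp8 lie in 1 cluster of 10 Mmp genes on chromosome 9. By brightest probe they were the 3 members with the highest ratios of Torin1-treated M2 to M2 BMDMs. Mmp12 fell below Mmp19 (log2 ratio 1.33) by its dimmer probe, at 0.96, and as the mean of both its probes, at 1.25. For Mmp13, Mmp12 and Mmp8 the 250 bases before each annotated transcription start are shown from RefSeq (GRCm38.p6). Capitals mark the AP-1 motif TGAGTCA on either strand, the letters bound by Fos and Jun proteins.
Mmp13 (chr9:7272264-7272513, plus strand): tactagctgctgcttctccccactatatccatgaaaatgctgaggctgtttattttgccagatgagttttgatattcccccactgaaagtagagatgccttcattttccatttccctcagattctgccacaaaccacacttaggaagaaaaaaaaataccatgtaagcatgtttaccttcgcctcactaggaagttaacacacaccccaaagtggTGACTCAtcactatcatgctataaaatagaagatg
Mmp12, upstream start (chr9:7344147-7344396, plus strand): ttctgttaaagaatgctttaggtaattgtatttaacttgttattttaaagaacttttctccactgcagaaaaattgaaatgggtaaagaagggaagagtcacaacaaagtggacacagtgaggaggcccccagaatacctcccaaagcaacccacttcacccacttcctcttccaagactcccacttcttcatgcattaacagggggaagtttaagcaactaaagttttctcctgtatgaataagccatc
Mmp12, downstream start (chr9:7347124-7347373, plus strand): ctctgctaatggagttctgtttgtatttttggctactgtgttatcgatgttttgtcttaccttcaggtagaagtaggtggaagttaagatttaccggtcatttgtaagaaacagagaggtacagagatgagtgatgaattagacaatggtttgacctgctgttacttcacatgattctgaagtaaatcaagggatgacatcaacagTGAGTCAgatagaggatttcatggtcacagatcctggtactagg
Mmp8 (chr9:7558179-7558428, plus strand): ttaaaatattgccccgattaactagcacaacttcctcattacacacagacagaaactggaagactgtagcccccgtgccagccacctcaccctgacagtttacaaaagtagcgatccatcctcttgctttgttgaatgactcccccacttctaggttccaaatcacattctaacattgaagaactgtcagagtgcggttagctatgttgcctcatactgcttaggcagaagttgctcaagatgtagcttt
The motif was found at position −35 from the Mmp13 start, on the minus strand, and at position −44 from the downstream Mmp12 start, on the plus strand. It was not found in the window of Mmp8 or of the upstream Mmp12 start, nor in those of Mmp14, Timp1, Timp2 and Timp3, which were the other members with an entry (7 of 10 members matched, with 8 windows). Of all 32851 windows of the same length, 4.46% held the AP-1 motif. AGGAAG, a motif of the Ets factor PEA3, was found on either strand in the windows of Mmp8, Mmp13, Mmp14, Timp1, Timp3 and the upstream Mmp12 start, against 29.5% of all windows, and it overlapped no AP-1 match. TTCNNNNGAA, the spaced palindrome of STAT6, was found in none of the 8 windows and in 5.85% of all windows. These matches describe letters and not binding. The Mmp windows on chromosome 9 held 0 to 4 CpG dinucleotides, and those of Timp2 and Timp3 held 21 and 18, where the median of all windows was 6.

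One probe sequence is shown for each of the 2 genes whose probes gave unlike values. The first probe below is the brightest of Mmp12 (mm9, chr9:7352935-7352994), and the second is the dimmer probe of Timp2, whose alignment skips an intron (mm9, chr11:118171964-118178741).
Mmp12 probe: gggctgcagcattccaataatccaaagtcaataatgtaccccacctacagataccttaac
Timp2 probe: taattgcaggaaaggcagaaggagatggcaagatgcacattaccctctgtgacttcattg

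Signals are given as normalized signal, which is the background-corrected spot intensity divided by the 75th percentile of its array, so that 1 is the level of that percentile. Comparisons are given as log2 ratios, and a difference of 2-fold is 1 on that scale. A probe was called well above background where the scanner software said so for most of its spots. The 75th percentile itself was 286.8 intensity units on the M1 array and 470.0 to 594.8 on the other 3, between 28339 and 30857 of 55681 probes were well above background, and no spot was saturated. With 1 array per condition there is no biological replicate error, no test was made, and precision is limited by how few arrays there are. From probes spotted repeatedly on the same array, log2 ratios had a median technical SD of 0.10 for M1 against M2 and 0.09 for the other 3 comparisons (n = 232 to 249 probes above background on both arrays). Lamtor1 itself, listed as 2400001E08Rik, had a normalized signal of 51.2 in M1, 66.3 in M2, 1.55 in Lamtor1-deficient M2 BMDMs, and Torin1-treated M2 BMDMs had a log2 ratio to M2 of 0.18. The array labelled as deficient thus had 42.7-fold less than M2. All 8 macrophage markers on the array, among them Csf1r, Cd68 and Itgam, were well above background on all 4 arrays, at a summed normalized signal of 475 in M1, 799 in M2, 645 in Lamtor1-deficient M2 and 661 in Torin1-treated M2 BMDMs. Of the 8, 3 were lower than in M2 by 2-fold or more with Lamtor1 loss (Fcgr1, Emr1 and Cd14, at log2 ratios of −4.96, −2.57 and −1.86) and 2 with Torin1 (Fcgr1 at −4.61 and Emr1 at −2.81). In M1, Csf1r and Emr1 were lower than in M2, at −1.24 and −1.04, and Fcgr1 was higher, at 2.49. The shares of all genes lower by 2-fold or more were 8.74% with Lamtor1 loss, 11.7% with Torin1 and 19.2% in M1, where 30.7% were higher.

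**Figure D1:**
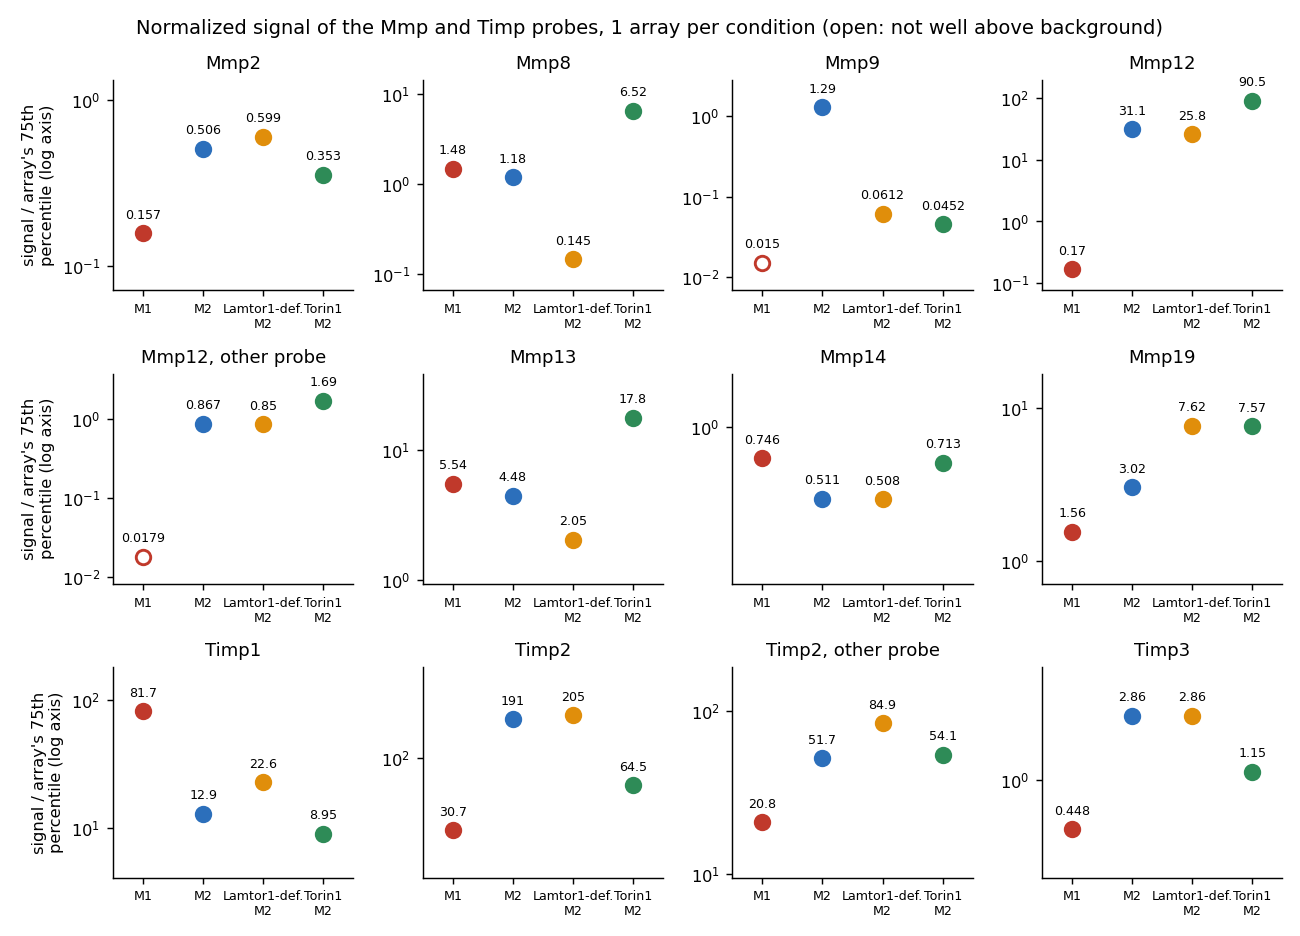
Normalized signal (signal divided by the array's 75th percentile, log axis, a separate range in each panel) of the 12 member probes on the M1, M2, Lamtor1-deficient M2 and Torin1-treated M2 arrays, 1 point per array with its value. Mmp8 and Mmp13 peak in Torin1-treated M2 BMDMs at 6.52 and 17.8, Mmp9 peaks in M2 BMDMs at 1.29, and Timp1 peaks in M1 BMDMs at 81.7.

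The interstitial collagenases are Mmp8, also called neutrophil collagenase, and Mmp13, the main collagenase of rodents. Mmp8 had a normalized signal of 1.48 in M1, 1.18 in M2, 0.145 in Lamtor1-deficient M2 and 6.52 in Torin1-treated M2 BMDMs. The Torin1 array was the highest and the Lamtor1-deficient array the lowest, 45.0-fold apart, with M1 and M2 close together between them. Against M2, the log2 ratio of Mmp8 was −3.02 with Lamtor1 loss and 2.47 with Torin1. Between the 2 treatments directly, a comparison that does not use the M2 array, it was −5.49, and 15 of 15933 genes above background on at least 1 of these arrays had a lower ratio. With normexp, another background correction, these ratios were smaller in size, at −4.55 between the treatments and −2.23 for Lamtor1 loss against M2.

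Mmp13 followed the same order at a smaller range. Its normalized signal was 5.54 in M1, 4.48 in M2, 2.05 in Lamtor1-deficient M2 and 17.8 in Torin1-treated M2 BMDMs. The log2 ratio to M2 was −1.13 with Lamtor1 loss and 1.99 with Torin1, and that of Lamtor1-deficient over Torin1-treated cells was −3.12, with 171 genes lower. For both collagenases M1 and M2 BMDMs differed by under 2-fold, at log2 ratios of 0.33 and 0.31.

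Mmp12, the macrophage elastase, had the widest range of the members. By its brightest probe, the normalized signal was 0.170 in M1, 31.1 in M2, 25.8 in Lamtor1-deficient M2 and 90.5 in Torin1-treated M2 BMDMs. The 3 arrays of IL-4-stimulated cells were far above the M1 array, which was 183-fold lower than M2, and 26 of 16090 genes had a lower M1 to M2 ratio. This log2 ratio was −7.52, and it was −6.23 with normexp, −6.56 as the mean of both Mmp12 probes and −8.34 after a shift to the array median. Against M2, the log2 ratio was −0.27 with Lamtor1 loss and 1.54 with Torin1. The dimmer probe (normalized signal 0.0179 in M1, where it was not well above background, 0.867 in M2, 0.850 in Lamtor1-deficient M2 and 1.69 in Torin1-treated M2) gave the same order and at least a 13.2-fold lower M1 signal than M2. Its log2 ratio to M2 was −0.03 with Lamtor1 loss and 0.96 with Torin1, so the Torin1 difference was past 2-fold with the brightest probe and just under it with the dimmer one.

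The other Mmp genes of the chromosome 9 cluster place these 3 members among their neighbours. In RefSeq order the cluster runs Mmp13, Mmp12, Mmp1b, Mmp3, Mmp1a, Mmp10, Mmp8, Mmp27, Mmp20 and Mmp7, of which 6 were well above background on all 3 arrays of IL-4-stimulated cells. Mmp27, directly next to Mmp8, had a normalized signal of 1.00 in M1, 1.48 in M2, 0.328 in Lamtor1-deficient M2 and 3.36 in Torin1-treated M2 BMDMs. That is again lowest with Lamtor1 loss and highest with Torin1, at log2 ratios to M2 of −2.17 and 1.19. The neighbours were read because Mmp8 and Mmp13 already had this order, so it counts as an observation for Mmp27 only. Of all 13844 genes measured above background in each of the 3 IL-4 conditions, 71 (0.513%) were lower with Lamtor1 loss and higher with Torin1 by 2-fold or more, a share given for scale, since the genes were chosen for this order and both ratios share the M2 array. Mmp3, stromelysin-1, lies between them and had another pattern, with log2 ratios of 2.67 with Lamtor1 loss and 0.75 with Torin1 from a dim signal of 0.0493 in M2. Mmp10 was within 2-fold in both, at 0.37 and −0.07.

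**Figure D2:**
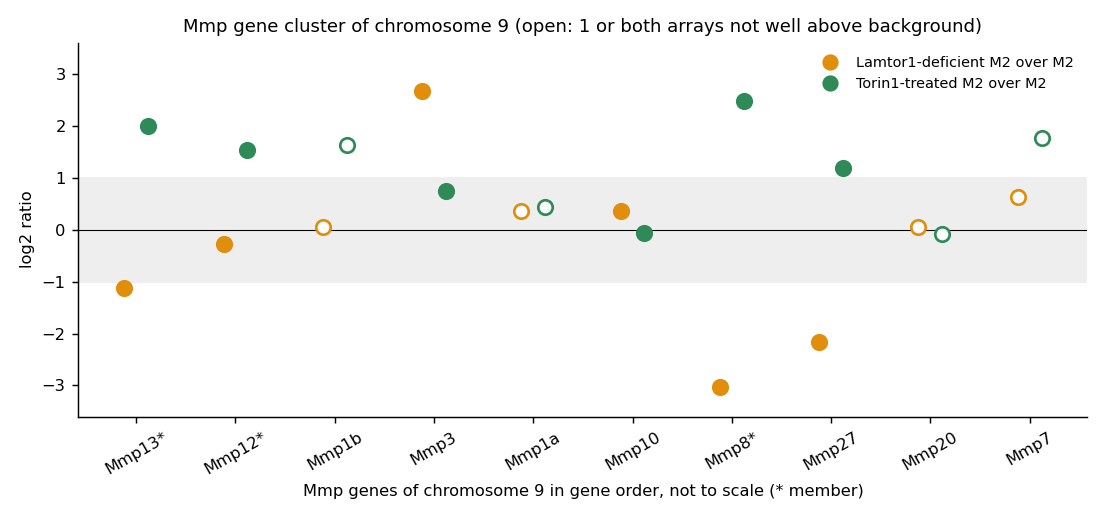
Log2 ratio to M2 BMDMs (vertical axis) of the 10 Mmp genes of the chromosome 9 cluster in gene order, for Lamtor1-deficient M2 and Torin1-treated M2 BMDMs, 1 point per gene and comparison. Mmp8, Mmp13 and Mmp27 lie below −1 with Lamtor1 loss and above 1 with Torin1, and open points are genes with 1 or both arrays not well above background.

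The gelatinases, Mmp2 and Mmp9, cleave denatured collagen and basement membrane collagen, and they behaved differently from each other. Mmp9 was spotted 10 times on each array, so its values can be given by spot. Its signal was 769 ± 58.2 intensity units in M2 (SD, n = 10 spots), 32.8 ± 6.68 in Lamtor1-deficient M2 (n = 10 spots) and 21.2 ± 5.63 in Torin1-treated M2 BMDMs (n = 10 spots). All 10 spots were well above background in M2, 9 with Lamtor1 loss and 7 with Torin1, and the SD of the log2 signals was 0.31 and 0.37 on the last 2 arrays. In M1 BMDMs 8 spots gave 4.31 ± 0.551 units, none of them well above background, and the other 2 spots were outliers by the scanner's flags. The lowest M2 spot (712 units) was far above the highest spot of any other array (42.7 units), whereas the spots of the Lamtor1-deficient and Torin1 arrays overlapped. Normalized, Mmp9 was 1.29 in M2, 0.0612 in Lamtor1-deficient M2 and 0.0452 in Torin1-treated M2 BMDMs. Against M2 its log2 ratio was −4.40 with Lamtor1 loss and −4.84 with Torin1, and M1 was at least 19.7-fold lower than M2. With normexp the log2 ratios to M2 were −2.92 with Lamtor1 loss, −2.99 with Torin1 and −2.74 in M1, the last being smaller in size than that bound. Of 15580 and 15961 genes, 132 and 139 had a lower ratio with Lamtor1 loss and with Torin1.

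Most markers of neutrophils, which store Mmp9 and Mmp8 in granules, moved with Mmp9. Of 8 neutrophil markers on the array, 6 (Mpo, Camp, Ltf, Ngp, S100a8 and S100a9) were lower than in M2 by 2-fold or more on each of the other 3 arrays. The shares of all genes this much lower were 19.2% in M1, 8.74% with Lamtor1 loss and 11.7% with Torin1. In M1, Ltf and Ngp were not well above background and at least 76.8-fold and 41.7-fold lower than in M2, and the other 4 had log2 ratios of −5.57 to −2.04. The log2 ratios to M2 of all 6 ran from −5.21 to −1.42 with Lamtor1 loss and from −6.59 to −2.23 with Torin1. The summed normalized signal of the 7 markers with a value on every array was 90.6 in M2 and 4.42 to 6.35 on the other 3. S100a9 alone was 65.3 in M2. The sum leaves out Elane, which was higher in M1 and with Lamtor1 loss than in M2. Ltf, a granule protein gene, had a normalized signal of 5.04 in M2, 0.136 with Lamtor1 loss and 0.0523 with Torin1. The receptor gene Cxcr2 was not well above background in M2, and Elane was 12.4 in M2, 18.6 in Lamtor1-deficient M2 and 52.1 in M1 with no usable spot on the Torin1 array. Fewer neutrophils and less Mmp9 RNA per cell cannot be told apart in these bulk samples, and the part of such cells in the Mmp9 difference was not tested. Mmp8 was lower than in M2 with Lamtor1 loss, as the 6 markers were, and higher with Torin1, where they were lower. The part of neutrophils in the Mmp8 values was not tested either.

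**Figure D3:**
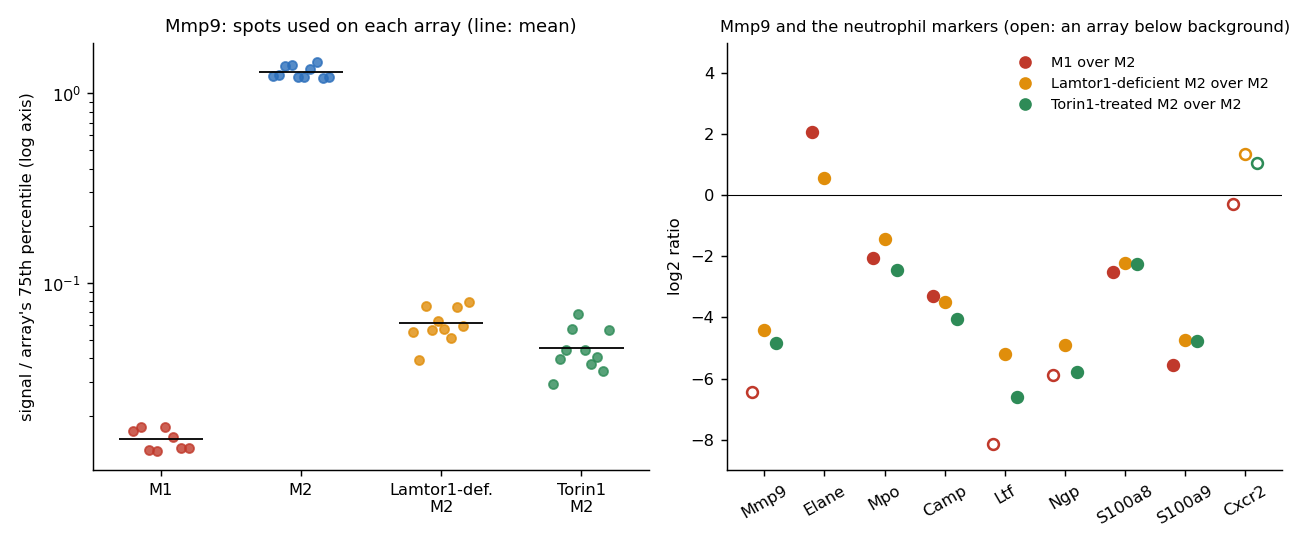
Left, normalized signal (log axis) of the Mmp9 spots used on each array, with the mean as a line. The M2 spots reach 1.46, and the highest spot of any other array is at 0.0797. Right, log2 ratios to M2 BMDMs of Mmp9 and of 8 neutrophil markers, with open points where an array was not well above background; 6 markers lie below −1 in each comparison.

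Mmp2 had a normalized signal of 0.157 in M1, 0.506 in M2, 0.598 in Lamtor1-deficient M2 and 0.353 in Torin1-treated M2 BMDMs. The M1 array was the lowest, at a log2 ratio to M2 of −1.69, which was −0.80 with normexp background correction. The Lamtor1-deficient and Torin1 arrays were on either side of M2, at 0.24 and −0.52, and 0.76 apart from each other. Mmp14, a membrane-anchored MMP that activates pro-Mmp2 together with Timp2, was the flattest member. Its normalized signal was 0.746 in M1, 0.511 in M2, 0.508 in Lamtor1-deficient M2 and 0.713 in Torin1-treated M2 BMDMs, 1.47-fold from lowest to highest. M2 and Lamtor1-deficient cells differed by a log2 ratio of −0.01 and M1 and Torin1-treated cells by 0.06, with no replicate arrays to set these values against.

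Mmp19, a secreted MMP that cleaves basement membrane proteins, was higher than in M2 with both treatments. Its normalized signal was 1.56 in M1, 3.02 in M2, 7.62 in Lamtor1-deficient M2 and 7.57 in Torin1-treated M2 BMDMs. The log2 ratio to M2 was 1.34 with Lamtor1 loss and 1.33 with Torin1, and the 2 arrays differed by 0.01. That last value ran from −0.14 to 0.32 under other scalings, and without replicates it does not show that the treatments act alike. M1 was lower than M2 by 0.96 on the log2 scale, just inside 2-fold. Shifting arrays to their medians in place of the 75th percentile took the M1 value to −1.78.

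Among the inhibitors, Timp1, an inducible secreted TIMP, was the only one with its highest signal in M1 BMDMs. Its normalized signal was 81.7 in M1, 12.9 in M2, 22.6 in Lamtor1-deficient M2 and 8.95 in Torin1-treated M2 BMDMs. M1 was 6.36-fold above M2, and the Lamtor1-deficient and Torin1 arrays stood on either side of M2 at log2 ratios of 0.81 and −0.52. Directly compared, Lamtor1-deficient cells had 2.53-fold more than Torin1-treated cells, a log2 ratio of 1.34.

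Timp3, the TIMP that is retained in the matrix, had a normalized signal of 0.448 in M1, 2.86 in M2, 2.86 in Lamtor1-deficient M2 and 1.15 in Torin1-treated M2 BMDMs. The log2 ratio of Lamtor1-deficient to M2 cells was 0.00. The other 2 arrays were lower than M2 by a log2 ratio of −2.67 in M1 and −1.32 with Torin1.

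Timp2 was measured by 2 probes that did not give the same answer. The brightest had a normalized signal of 30.7 in M1, 191 in M2, 205 in Lamtor1-deficient M2 and 64.5 in Torin1-treated M2 BMDMs. The probe across the intron, printed above, had 20.8 in M1, 51.7 in M2, 84.9 in Lamtor1-deficient M2 and 54.1 in Torin1-treated M2 BMDMs. Both were lowest in M1 and highest in Lamtor1-deficient cells. With Torin1, the log2 ratio to M2 was −1.57 by the brightest probe and 0.07 by the other, a difference of −1.64. The lower Timp2 signal with Torin1 was seen with 1 of the 2 probes, and which of the 2 reflects the amount of the transcript was not tested.

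Markers of fibroblasts, cells that also make Mmp2, Timp2 and Timp3, varied across the same arrays. The summed normalized signal of 9 fibroblast markers was 16.4 in M1, 45.0 in M2, 57.4 in Lamtor1-deficient M2 and 17.1 in Torin1-treated M2 BMDMs. Of the 9, 5 were lower by 2-fold or more in M1 than in M2 (Col1a1, Col1a2, Col3a1, Pdgfra and Postn), 3 with Torin1 (Col1a1, Col1a2 and Col3a1) and 1 with Lamtor1 loss (Postn), counting a probe not well above background at its bound. The shares of all genes this much lower, taken without bounds, were 19.2% in M1, 11.7% with Torin1 and 8.74% with Lamtor1 loss. Lum was well above background in M2 alone and too dim there for its bounds to reach 2-fold. The collagen genes Col1a1, Col1a2 and Col3a1 had log2 ratios to M2 of −3.81, −2.40 and −3.35 in M1, 0.26, 0.23 and 0.59 with Lamtor1 loss, and −1.86, −1.44 and −2.89 with Torin1. With Lamtor1 loss Thy1, Dcn and Pdgfra were higher than in M2, at 1.99, 1.91 and 1.45, and Postn was lower at −1.94, whereas Postn was at 0.04 with Torin1. Dcn, a small proteoglycan of fibroblasts, was also higher in M1 than in M2, at 2.55. The part of such cells in the values of Mmp2, Timp2 and Timp3 was not tested.

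**Figure D4:**
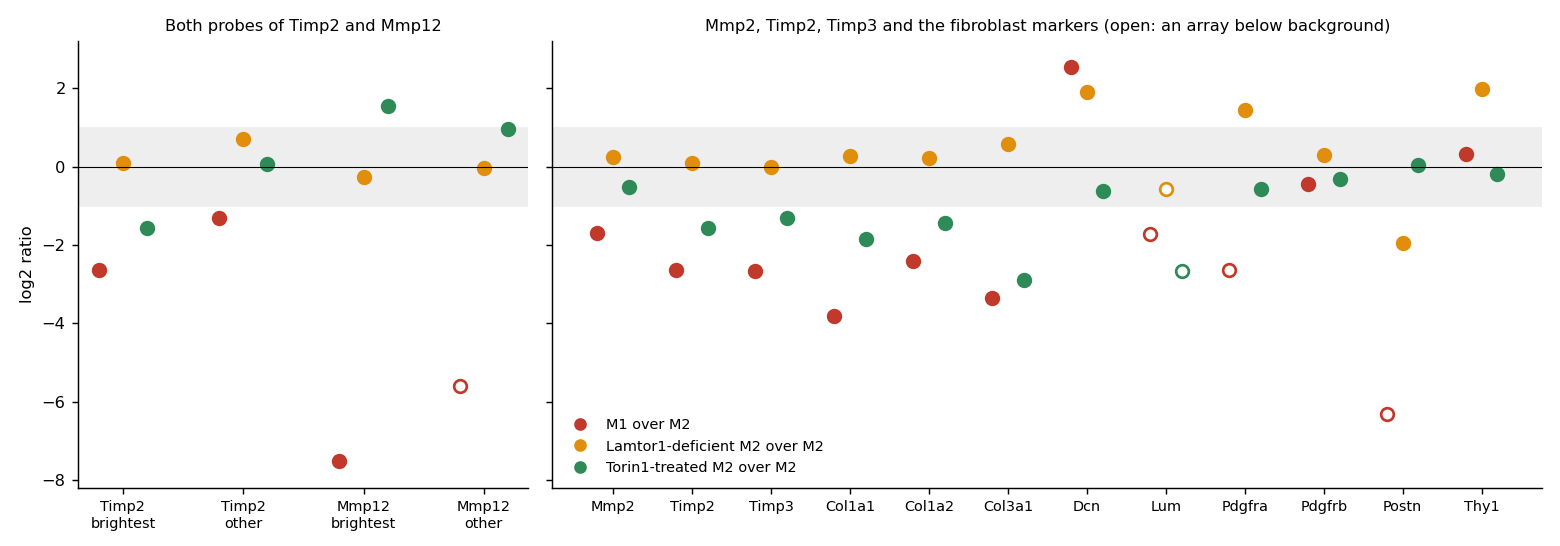
Log2 ratios to M2 BMDMs (vertical axis) on the M1, Lamtor1-deficient M2 and Torin1-treated M2 arrays. Left, both probes of Timp2 and Mmp12, where the Torin1 ratio of Timp2 is −1.57 with 1 probe and 0.07 with the other. Right, Mmp2, Timp2 and Timp3 beside 9 fibroblast markers, of which Col1a1, Col1a2 and Col3a1 are low in M1 and with Torin1.

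Counted over the members by their brightest probes, M1 BMDMs had 1 of 10 members higher than M2 by 2-fold or more (Timp1) and 5 lower (Mmp2, Mmp9, Mmp12, Timp2 and Timp3). Over all genes with a value on both arrays, 30.7% were higher and 19.2% were lower in this comparison. The median log2 ratio was −1.32 over the members and 0.75 over all genes, the latter being 0.09 over the 13474 genes well above background on both arrays. After a shift to the array median that all-gene value was −0.07, every M1 ratio fell by 0.82 on the log2 scale, and the ratios of Mmp8, Mmp13 and Mmp14 took the other sign at −0.49, −0.52 and −0.28. The all-gene split depended on the scaling in the same way, with 61.6% of the genes past 2-fold being higher in M1 at the 75th percentile, 33.1% at the median and 44.0% after quantile normalization.

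With Lamtor1 loss, 1 member was higher than in M2 by 2-fold or more (Mmp19) and 3 were lower (Mmp8, Mmp9 and Mmp13). The shares over all genes were 8.9% higher and 8.74% lower. The median log2 ratio was −0.01 over the members and 0.04 over all genes. All 3 TIMPs were within 2-fold of M2.

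With Torin1, 4 members were higher than in M2 by 2-fold or more (Mmp8, Mmp12, Mmp13 and Mmp19) and 3 were lower (Mmp9, Timp2 and Timp3). Over all genes 14.3% were higher and 11.7% were lower. The median log2 ratio was −0.02 over the 10 members, 1.33 over the 7 MMPs and −1.32 over the 3 TIMPs, against −0.05 over all genes. The TIMP value rests on the brightest Timp2 probe, since with the other, at 0.07, the middle value is the −0.52 of Timp1. Of the genes past 2-fold, 55.0% were higher at the 75th percentile and 39.0% at the median.

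Compared directly, Lamtor1-deficient cells had 3 members higher than Torin1-treated cells by 2-fold or more (Timp1, Timp2 and Timp3) and 3 lower (Mmp8, Mmp12 and Mmp13). Over all genes 11.6% were higher and 12.8% were lower. All 3 TIMPs were thus on one side by their brightest probes, with log2 ratios of 1.34, 1.67 and 1.32, although the other Timp2 probe gave 0.65, which is under 2-fold. The 3 members on chromosome 9 were on the other side, with −5.49 for Mmp8, −1.81 for Mmp12 (−0.99 by its dimmer probe, just under 2-fold) and −3.12 for Mmp13. The median log2 ratio was 0.22 over the members and 0.12 over all genes. Of the genes past 2-fold, 47.5% were higher at the 75th percentile, 67.4% at the median and 37.4% at the 75th percentile of probes well above background on all arrays.

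**Figure D5:**
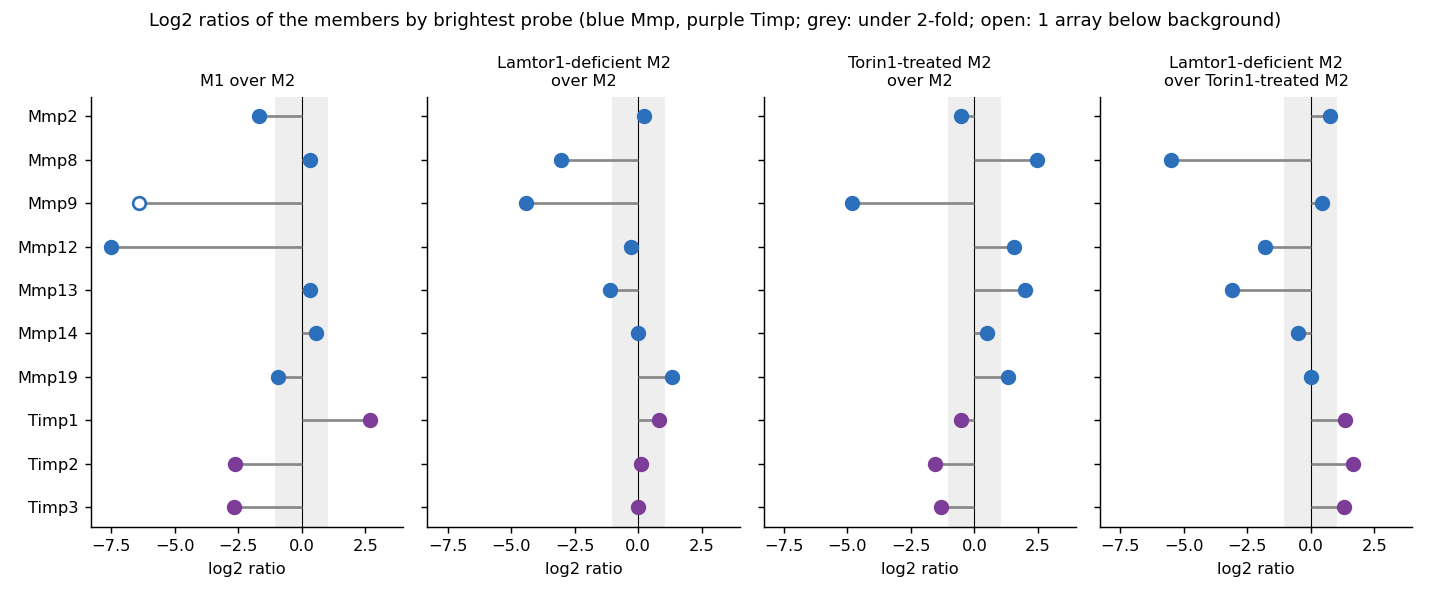
Log2 ratios of the 10 members by brightest probe in the 4 comparisons, 1 point per gene, MMPs in blue and TIMPs in purple, with the range under 2-fold in grey. Mmp8 and Mmp13 change sides between Lamtor1 loss and Torin1, Mmp9 is low in both, and the open point marks Mmp9 in M1 BMDMs, which was not well above background.

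Of 16 other Mmp genes on the array, 5 were well above background on all 4 arrays (Mmp3, Mmp11, Mmp17, Mmp23 and Mmp27) and 5 on none (Mmp1a, Mmp1b, Mmp15, Mmp20 and Mmp21). Mmp23 had a normalized signal of 0.187 in M1, 0.883 in M2, 0.986 in Lamtor1-deficient M2 and 0.243 in Torin1-treated M2 BMDMs, and it is named after its values were seen. Mmp25, a membrane-anchored MMP of leukocytes, had a normalized signal of 0.974 in M1 and was not well above background on the other 3 arrays, at least 26.8-fold higher in M1 than in M2. Mmp28 was well above background in Lamtor1-deficient M2 BMDMs alone, at 0.143 and at least 3.95-fold above M2 and 4.28-fold above Torin1-treated cells. Counting dim probes at their bounds, 1 of 9 genes well above background on at least 1 of the arrays compared was higher than in M2 by 2-fold or more with Torin1 (Mmp27) and 1 was lower (Mmp23). With Lamtor1 loss 2 of 9 were higher (Mmp3 and Mmp28) and 1 was lower (Mmp27). In M1, 4 of 10 were higher (Mmp3, Mmp7, Mmp17 and Mmp25) and 1 was lower (Mmp23). The shares of all genes, taken without bounds, were 14.3% higher and 11.7% lower with Torin1. They were 8.9% and 8.74% with Lamtor1 loss and 30.7% and 19.2% in M1.

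Other inhibitors and partners of these proteinases were also read from the arrays. Slpi, an inhibitor of serine proteases, had a normalized signal of 170 in M1, 3.05 in M2, 20.6 in Lamtor1-deficient M2 and 6.18 in Torin1-treated M2 BMDMs. Stfa1, a cystatin-type inhibitor of cathepsins, was 0.188 in M2 and not well above background with Lamtor1 loss or Torin1, where it was at least 5.02-fold and 5.61-fold lower. Lcn2, whose human counterpart binds MMP9, was 329 in M1, 3.44 in M2, 0.461 in Lamtor1-deficient M2 and 0.451 in Torin1-treated M2 BMDMs. Lcn2 was thus lower than M2 where Mmp9 was lower in both treatments, but not in M1, where it was 95.7-fold higher. Itgb3, an integrin subunit, was 0.824 in M1, 15.2 in M2, 61.2 in Lamtor1-deficient M2 and 55.2 in Torin1-treated M2 BMDMs. Among all 10 other inhibitors, 1 was higher and 1 lower than M2 by 2-fold or more with Lamtor1 loss, and 2 were higher and 2 lower with Torin1. In M1, 3 were higher and 2 lower. The shares of all genes were 8.9% higher and 8.74% lower with Lamtor1 loss and 14.3% and 11.7% with Torin1. In M1 they were 30.7% and 19.2%.

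For the 9 members well above background on all arrays, likeness to other genes was measured as the distance between the 3 log2 ratios to M2, over 12990 genes. These ratios all share the M2 array. Mmp8 stood apart, with no gene within a distance of 1 and Fabp7 the nearest at 1.19, followed by Ctgf at 1.33 and Pou5f2 at 1.76. Mmp12 also had no gene within 1, the nearest being ND4L at 1.48, P2ry1 at 1.56 and Slc1a5 at 1.85. Mmp13 had 57 genes within 1, led by Ankrd23 (0.28), 2610008G14Rik (0.33) and A630057N01Rik (0.35). Mmp19 had 168, led by 2700046G09Rik (0.26), Atg7 (0.28) and Rwdd3 (0.28). Timp1 had 151, led by Apobec1 (0.19), Gm5106 (0.31) and 6330578E17Rik (0.37). Timp2 had 249, led by Lima1 (0.13), Rcc2 (0.15) and Ptp4a3 (0.15). Timp3 had 384 within 1. The nearest genes of Mmp2 were Txn2 (0.08), Aldh9a1 (0.10) and Gm15455 (0.10), and those of Mmp14 were Tagln (0.06), Zfp936 (0.07) and Ncoa5 (0.07), with 1525 and 3358 genes within 1.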

How the data were processed

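Total RNA was labelled with Cy3 and hybridized to 1-colour Agilent arrays carrying 62976 spots, 3671 of them controls. The signal intensities deposited by the authors were the processed, background-corrected signals of Agilent Feature Extraction (version 10.5.1.1 in the submitters' processing notes, 10.7.3.1 in the file headers), with probe positions on mm9. The authors' methods used a raw threshold of 1.0 and a 75th percentile shift, and the same was done here. Outlier spots were left out, spots of a probe were averaged, and log2 values were taken after the floor of 1. All 4 arrays were on 1 slide and in 1 scan. A gene was read by its brightest probe, that with the highest mean log2 signal over the 4 arrays. Genes with a 2-fold or larger ratio were counted (listed genes other than the members at their bound where a probe was dim) and no test was made, since each group had 1 array. Where 1 array was not well above background, the ratio is a bound against that array's lowest signal well above background (18.8, 21.6, 20.1 and 15.7 intensity units in M1, M2, Lamtor1-deficient M2 and Torin1-treated M2 BMDMs). The genes named beside the members were up to 4 per comparison with the largest ratios of the listed proteolysis genes and regulators, the marker genes, the neighbours on chromosome 9 and the 3 nearest genes of each member. Some results that this rule would name are not reported here. The members and lists were chosen with earlier results of these data known. Of 23688 symbols, 21934 were found in the RefSeq table (GRCm38.p6), which gave gene order and promoters. The counting of ratios was tested on data simulated from bright probes with small noise and changes well past 2-fold. Dim probes and changes near 2-fold were not tested in this way. Python 3.11.15, pandas 2.3.3 and limma 3.58.1 (for normexp) were used. Alternatives were other scalings, background corrections, filters, floors, probes and thresholds and the values of the series table, which differed from the scanner files by at most 0.497%.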

Additional observations from a re-analysis of the deposited data

Results flagged for a closer look

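Mmp8 and Mmp13 went opposite ways in the 2 treatments that were compared with the same M2 array. The log2 ratio of Mmp8 to M2 BMDMs was −3.02 with Lamtor1 loss and 2.47 with Torin1. That of Mmp13 was −1.13 and 1.99. No test of this difference was made, since each condition had 1 array.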

How the results depend on the processing

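All 4 counts of members past 2-fold were within 1.5 times of the reported ones under the other scalings, background correction, filters, floor, outlier spots, probes and series-table values. At a 3-fold threshold, 2 in place of 4 members remained past it with Lamtor1 loss and 3 in place of 7 with Torin1. No member past 2-fold took the other sign under any setting. In the 10 settings that keep the 2-fold threshold, and where the setting gives a value, 5 of 6 members kept their call in M1 against M2 (the exception was Mmp2, at −0.80 with normexp), 4 of 4 with Lamtor1 loss, 6 of 7 with Torin1 (the exception was Timp2, at −0.75 as the mean of both probes) and 6 of 6 between the treatments. A shift to the median took Mmp19 in M1 to −1.78 and Mmp2 between the treatments to 1.07, both then past 2-fold. Counts over all genes moved more. With Lamtor1 loss 4176 genes were past 2-fold, 2074 with normexp and 2212 with probes well above background on both arrays. With Torin1 the counts were 6165, 3108 and 3558, between the treatments 5786, 2773 and 3236, and in M1 11813 fell to 6798 under that filter. No paired analysis was possible because each condition had 1 array. A signal near background carried a median technical SD of 0.31 to 0.51 on the log2 scale.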

Other observations

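Of 10 Adam and Adamts genes, which encode related metalloproteinases, 5 were lower and 1 higher than in M2 BMDMs by 2-fold or more with Torin1, and 2 were lower and 2 higher with Lamtor1 loss. Over all genes 11.7% were lower and 14.3% higher with Torin1, and 8.74% and 8.9% with Lamtor1 loss. Adam8, a myeloid membrane protease, had a normalized signal of 537 in M1, 296 in M2, 66.8 in Lamtor1-deficient M2 and 44.1 in Torin1-treated M2 BMDMs. Adamts1 was 0.341 in M2, 0.931 in Lamtor1-deficient M2 and 0.166 in Torin1-treated M2 BMDMs, so that the treatments differed by a log2 ratio of 2.48. The 6 cathepsin genes were within 2-fold of M2 in every comparison with it except Ctsk with Torin1, at 1.59. Of 12 genes for activators and pericellular partners, 2 were higher and 1 lower with Lamtor1 loss, and 3 were higher and 2 lower with Torin1.

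Of 14 genes for transcription factors of the AP-1, Ets, NF-κB and STAT6 groups, 8 were higher and 1 lower in M1 than in M2 BMDMs by 2-fold or more, where 30.7% of all genes were higher and 19.2% lower. After a shift to the array median 3 were higher (Fosl1, Batf and Ets2) and 2 lower (Fosl2 and Nfkb1), against 15.6% and 31.7% of all genes. None was higher by 2-fold or more with Lamtor1 loss or Torin1, where 3 and 4 were lower, against 8.74% and 11.7% of all genes. Fos had a normalized signal of 17.1 in M1 and 6.78 in M2 BMDMs and was lower than M2 with both treatments, at log2 ratios of −3.28 with Lamtor1 loss and −2.62 with Torin1. The other AP-1 genes did not all move with Fos. With Lamtor1 loss and Torin1, Fosl2 was at −1.49 and −2.28, Jun at −0.29 and 0.15 and Fosb at 0.82 and 0.46. Normalized signals summed over the other marker lists gave 0.123 to 1.08 for 5 dendritic cell markers and 0.219 to 0.711 for 6 mast cell and basophil markers. For 7 of 8 lymphocyte markers the sum was 2.03 to 4.14. That sum leaves out Cd4, which had no usable spot on the Torin1 array. Cd4 was brighter than the sum of the others, at 33.1 in M1, 9.52 in M2 and 7.24 in Lamtor1-deficient M2 BMDMs.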
